A study of Mus musculus with 2 samples.

Results

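The genes described are those of the mouse major histocompatibility complex (MHC), named H2 in the mouse, and of antigen processing. They were taken by name: the 37 table rows whose symbol starts with H2-, and 16 genes for the light chain, peptide transport and loading, the immunoproteasome, the MHC transactivators, the invariant chain and the ER chaperones of the loading complex. This gave 53 members of 21878 genes listed. Messenger RNA was measured in primary chondrocytes from C57BL/6 mice, treated in culture with lentivirus carrying either a control hairpin (shNC) or a hairpin against Gpx4 (shGpx4), with 1 library per group. Both groups thus share the strain, the culture and the exposure to lentivirus, and age, number of animals and number of hairpins are not given in the labels. The series was made to learn how GPX4, a peroxidase that protects membrane lipids from oxidation, acts in these cells. With a single library on each side, nothing here could be tested, and nothing says that the libraries came from separate animals. Every comparison describes these 2 libraries.

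MHC class I molecules are made of a heavy chain and the light chain beta-2 microglobulin. They carry peptides, cut from cell proteins by the proteasome and pumped into the endoplasmic reticulum by the TAP transporter, to the surface of nearly all nucleated cells, where T cells and natural killer cells read them. Interferons and NF-kB raise class I transcription, and the transactivator NLRC5 acts at class I promoters as CIITA does at class II promoters. Class II molecules present peptides from outside the cell and are mostly confined to professional antigen-presenting cells, although interferon gamma can induce them in other cell types.

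Stretches of the promoters of class I genes and B2m are given here because the classical genes, H2-Q4, H2-Q6 and H2-Q7 share an arrangement of motifs. The other measured members with a promoter window did not hold this arrangement. RefSeq's table for GRCm38.p6 held a promoter window, 250 bases before to 50 bases after the start site, for 43 of the 53 members. Each stretch below reads 5′ to 3′ along its gene, and capitals mark matches on either strand to the motifs searched. These were the NF-kB site GGGGATTCCC, its variant GGGATTTCC in H2-Q4, the class I interferon response sequence AGTTTCACTTC, the general interferon-stimulated response element GAAANNGAAA, TGACG as found in CRE-like sites, and CCAAT. The longer motifs are known elements, written with the letters they have in H2-K1, H2-Q4 and B2m, so their presence in those genes is no finding. Matches of different motifs may overlap.
H2-K1 (chr17:34000349-34000468, minus strand): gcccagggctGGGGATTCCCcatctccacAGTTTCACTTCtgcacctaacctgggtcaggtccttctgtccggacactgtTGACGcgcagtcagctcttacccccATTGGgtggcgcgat
H2-D1 (chr17:35262913-35263055, plus strand): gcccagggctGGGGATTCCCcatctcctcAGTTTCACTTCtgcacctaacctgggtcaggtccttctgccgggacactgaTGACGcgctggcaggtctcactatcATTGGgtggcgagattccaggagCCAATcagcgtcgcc
H2-Q4 (chr17:35379434-35379576, plus strand): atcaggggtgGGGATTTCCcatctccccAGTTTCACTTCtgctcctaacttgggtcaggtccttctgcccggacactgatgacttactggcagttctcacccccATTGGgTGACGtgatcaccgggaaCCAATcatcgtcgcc
H2-Q6 (chr17:35424667-35424809, plus strand): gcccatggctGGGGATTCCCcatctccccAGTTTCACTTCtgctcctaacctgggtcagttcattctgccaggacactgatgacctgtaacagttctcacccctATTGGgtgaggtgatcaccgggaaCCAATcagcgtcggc
H2-Q7 (chr17:35439012-35439153, plus strand): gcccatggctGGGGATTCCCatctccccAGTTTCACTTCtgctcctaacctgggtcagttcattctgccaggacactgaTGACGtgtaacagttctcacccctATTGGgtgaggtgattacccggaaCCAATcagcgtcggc
H2-T23 (chr17:36032739-36032835, minus strand): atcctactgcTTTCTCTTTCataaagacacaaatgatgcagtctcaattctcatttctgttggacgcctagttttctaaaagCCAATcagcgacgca
B2m (chr2:122147538-122147648, plus strand): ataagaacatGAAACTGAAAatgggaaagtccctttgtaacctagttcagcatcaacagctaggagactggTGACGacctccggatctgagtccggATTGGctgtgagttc

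The NF-kB letters were found in 0.107% of all 32851 windows in the table, their H2-Q4 variant in 0.323% and the class I interferon response sequence in 0.0517%. H2-K1, H2-D1, H2-Q4, H2-Q6 and H2-Q7 held one of the NF-kB forms followed by the interferon response sequence, while the H2-Q10 window held the latter alone and the H2-Q2 window neither. The general interferon element, found in 3.44% of windows, was in the windows of B2m, H2-T22, H2-T23, Erap1 and Psme1. TGACG and CCAAT are short and common, in 20.8% and 37.4% of windows. A match describes letters in a window and does not show that a factor binds there.

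Levels are FPKM, reads scaled by gene length and library total. The control library held 19729142 reads in all and the shGpx4 library 21313211. Genes with a mean of at least 1 FPKM over both libraries are called measured, which left 10997 genes and 26 of the 53 members. To each FPKM 1 was added, and the log2 ratio gives shGpx4 relative to the control. The added 1 shrinks the ratios of low genes, and the size rule was at least 1.5-fold on this scale. The level that remained in shGpx4 is given as a percentage of shNC with an exact Clopper-Pearson 95% interval from the reads, which covers counting error only and not the spread between cultures. Gpx4 itself was at 161 FPKM in the control library and 96.2 FPKM in shGpx4, or 59.9% of the control level. The labelled cell type was only partly borne out, since Col2a1, Lect1, Sox9 and Comp were present (Col2a1 at 8.96 and 58.4 FPKM) while Acan, Matn1 and Epyc were at or near 0 in both libraries. Cell-state markers also differed beside the members: the chondrocyte gene Lect1 was at 124 and 270.0 FPKM (log2 ratio 1.12) and Prg4, lubricin, at 135 and 203 FPKM (0.58). Sox9 (-0.25), Comp (-0.23) and Col11a1 (-0.17) were lower. Of the 7 measured chondrocyte markers, 4 had intervals above equal levels and 3 below, against 18.1% and 27.3% of all measured genes. Of 8 fibroblast markers 2 were at least 1.5-fold higher, the matrix proteoglycan gene Dcn (2808 FPKM in the control library, 5042 in shGpx4, log2 ratio 0.84) and the surface glycoprotein gene Thy1 (18.7 and 28.6 FPKM, log2 ratio 0.59). Pdgfra (0.28) and Col3a1 (0.25) followed, while Vim (-0.10) and Col1a2 (-0.05) were lower with intervals below equal levels. Of all measured genes 2.99% were at least 1.5-fold higher. The part of all these markers in the differences of the members was not tested.

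The antigen presentation genes were mostly lower in the shGpx4 library. Of the 26 measured members 6 were at least 1.5-fold lower and none was at least 1.5-fold higher, against 1.96% and 2.99% of all measured genes. The 6 were H2-Q7, Psmb9, H2-Q6, H2-Ab1, H2-Q4 and Psmb8, of which H2-Q7 and Psmb9 were more than 2-fold lower on this scale, a size that 0.527% of all measured genes reached downwards and 1.02% upwards. With 0.1 added in place of 1, H2-Ab1 (-1.04) and H2-Q6 (-1.02) also passed 2-fold. The median ratio of the measured members was -0.32, against -0.04 over all measured genes, and 23 of the 26 were below 0, against 58.7% of all measured genes. The counting interval lay below equal levels for 19 members and above for 3, against 27.3% and 18.1% of all measured genes. Several members are among the deepest read genes, where such intervals are narrow. Of the 27 members under the filter 15 were listed at 0 in both libraries. In bulk RNA, fewer cells that express a gene and less of its RNA per cell cannot be told apart.

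**Figure D1:**
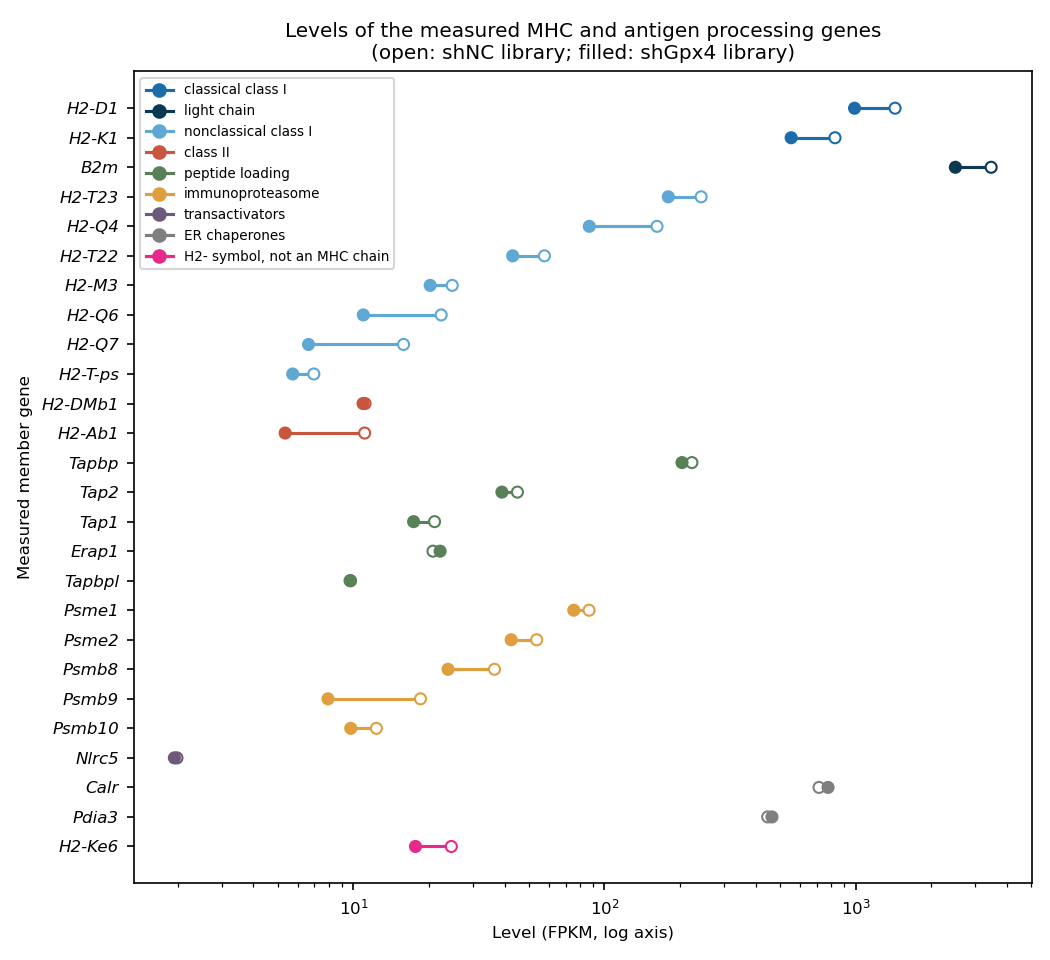
Levels of the 26 measured members in FPKM on a log axis, 1 row per gene, grouped and coloured by class. Open circles are the shNC library and filled circles the shGpx4 library. B2m, at 3466 and 2496 FPKM, is the highest, and the filled circle lies to the left of the open one for 23 of the 26 genes.

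The classical class I heavy chains and their light chain were the 3 most abundant members in the control library (in shGpx4, Calr at 777 FPKM stood above H2-K1), and all 3 were lower in shGpx4, with 66.9% to 72.0% remaining. H2-D1, on chromosome 17 from 35263094 to 35267497, was at 1436 FPKM in the control library and 990.3 FPKM in shGpx4. Its remaining level was 69.0% (interval 68.0% to 69.9%) and its log2 ratio -0.54. H2-K1, on chromosome 17 from 33996012 to 34000619, was at 828 FPKM in the control library and 554 FPKM in shGpx4. It remained at 66.9% (65.8% to 68.0%), a log2 ratio of -0.58 that falls just short of the 1.5-fold rule. B2m, on chromosome 2 from 122147687 to 122153082, was at 3466 FPKM in the control library and 2496 FPKM in shGpx4. It remained at 72.0% (71.2% to 72.9%), a log2 ratio of -0.47. In shNC 5 measured genes had a higher level than B2m and 20 a higher level than H2-D1. Of all 10997 measured genes, 222 had a lower ratio than H2-K1, 260 a lower ratio than H2-D1 and 384 a lower ratio than B2m.

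The balance between the chains differed less than their levels did, although the interval of B2m lies above those of H2-D1 and H2-K1. Heavy chain transcripts of all class I members summed to 2798 FPKM in the control library and 1898 FPKM in shGpx4, so the remaining sum was 67.8%. That sum was 0.807 of the B2m level in shNC and 0.760 in shGpx4. The share of the sum from H2-K1 and H2-D1 was 80.9% in shNC and 81.3% in shGpx4, and H2-D1 stood at 173% and 179% of H2-K1.

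The nonclassical class I genes, whose products have narrower roles, differed more from one another. Of 24 members 7 were measured, with a median of -0.43. All 7 had ratios below 0, against 58.7% of all measured genes, and 3 were at least 1.5-fold lower, against 1.96%. The 3 were H2-Q4, H2-Q6 and H2-Q7, the next measured genes after H2-D1 on chromosome 17. H2-Q1 and H2-Q2, both under the filter, lie between H2-D1 and H2-Q4. H2-Q4 was at 162 FPKM in the control library and 87.0 FPKM in shGpx4, a remaining level of 53.7% (51.5% to 56.1%). H2-Q6 was at 22.4 and 10.95 FPKM, or 49.0% (41.5% to 57.6%). H2-Q7, which with H2-Q6 belongs to the Qa-2 group of molecules that natural killer and T cells recognise, was at 15.8 and 6.63 FPKM. Its remaining level was 41.8% (35.5% to 49.2%), the lowest of the measured members, and 36 measured genes had a lower ratio. The share of H2-Q4 in all class I heavy chain message was 5.79% in shNC and 4.58% in shGpx4.

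The T and M genes were lower by less. H2-T23 encodes Qa-1, which presents leader peptides of other class I chains to natural killer cell receptors. It was at 243 FPKM in the control library and 179 FPKM in shGpx4, a remaining level of 74.0% (71.3% to 76.8%). H2-T22, a ligand of gamma delta T cells, was at 57.6 and 43.1 FPKM, or 74.7% (70.2% to 79.6%). H2-M3, which presents formylated peptides such as those of bacteria, was at 24.8 and 20.2 FPKM, or 81.7% (73.1% to 91.2%). H2-T-ps was at 6.96 and 5.73 FPKM, and its interval of 62.0% to 109% holds equal levels. The intervals of H2-Q4, H2-Q6 and H2-Q7 thus lay below those of H2-K1, H2-D1, H2-T23, H2-T22 and H2-M3.

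Near-identical copies limit how far single class I genes can be read. In the longest coding transcript of each gene in GENCODE vM21, the share of 50-base words also found in another gene was 44.7% for H2-T22, 34.9% for H2-Q7, 31.97% for H2-Q6, 28.8% for H2-T23 and 24.3% for H2-Q4. It was 14.3% for H2-D1, 8.79% for H2-K1, 0.576% for H2-M3 and 0 for B2m, Psmb8, Psmb9 and Psmb10. H2-Q7 shared the most with H2-Q6, at 19.3% of its words, and H2-T22 with H2-T10, at 37.9%. How reads that match several genes were assigned is not given in the sources used here, so the values of the Q and T genes are uncertain one by one. The values of B2m and Psmb9 do not carry this limit.

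Most other nonclassical members were not expressed at a level that could be compared. The nonclassical members listed at 0 in both libraries numbered 11, among them 9 of the M genes. H2-T24 was at 1.11 FPKM in the control library and 0.556 FPKM in shGpx4, from at least 61 and 33 reads, or 50.1% (31.8% to 77.7%). H2-Q1 was at 0.754 and 0.386 FPKM, or 51.2% (28.5% to 89.4%). H2-Q10, which in the mouse is a secreted class I molecule of the liver, was higher at 0.0344 and 0.287 FPKM, but from at least 1 and 9 reads. The values of H2-M5, H2-M10.2 and H2-Q2 can be given by 2 reads or fewer in each library.

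**Figure D2:**
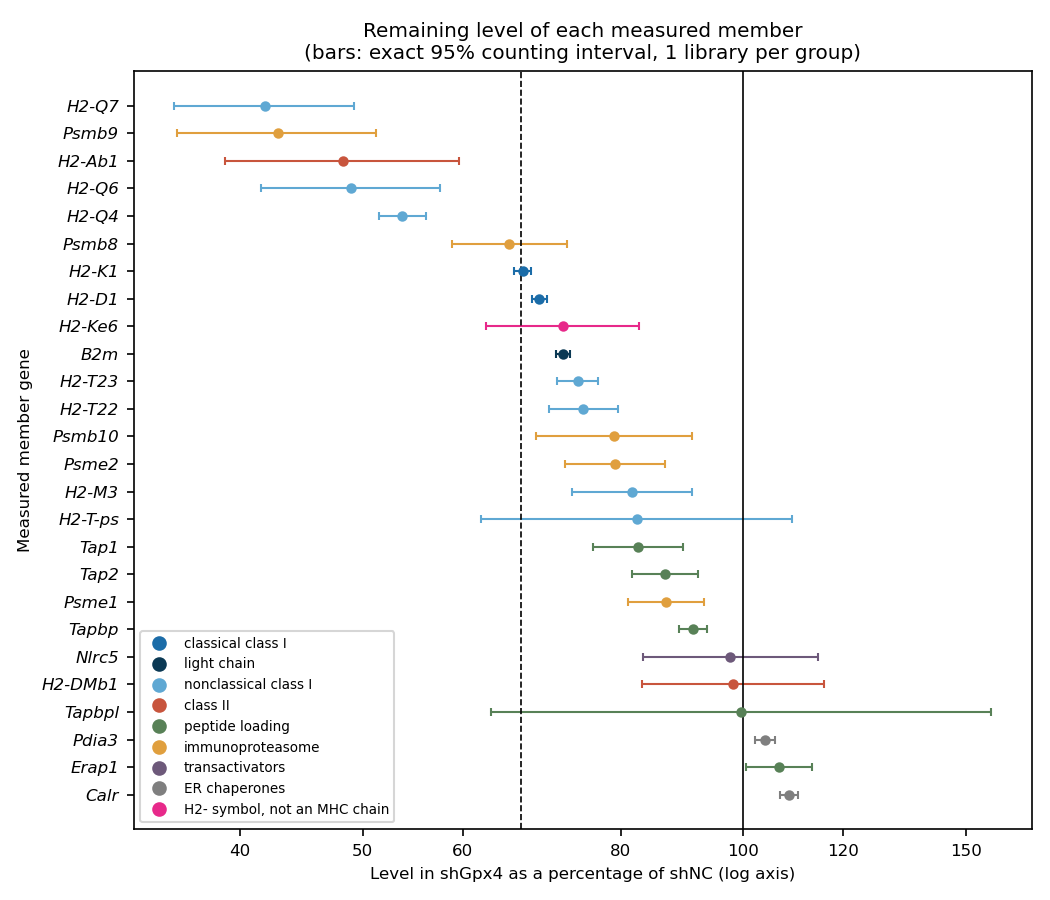
Level in shGpx4 as a percentage of shNC on a log axis for the 26 measured members, sorted, with exact 95% counting intervals as bars. The solid line marks equal levels and the dashed line a level lower by 1.5-fold without the added 1. The intervals of H2-Q7, Psmb9, H2-Ab1, H2-Q6 and H2-Q4 lie wholly left of the dashed line, and those of Calr, Pdia3 and Erap1 right of the solid one.

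The immunoproteasome subunits were lower in shGpx4, and none of their constitutive counterparts was. Psmb8, Psmb9 and Psmb10 are catalytic subunits that interferon gamma induces, and they replace Psmb5, Psmb6 and Psmb7 in the proteasome core so that more peptides fit class I grooves. Psmb9 was at 18.5 FPKM in the control library and 7.92 FPKM in shGpx4, a remaining level of 42.8% (35.7% to 51.2%). Only 38 of 10997 measured genes had a lower ratio. Psmb8 was at 36.5 and 23.8 FPKM, or 65.3% (58.9% to 72.5%). Psmb10, which lies outside the MHC on chromosome 8, was at 12.3 and 9.76 FPKM, or 79.0% (68.6% to 91.0%). The order Psmb9, Psmb8, Psmb10 from lowest remaining level upwards holds beyond counting error for Psmb9 against both others, while the intervals of Psmb8 and Psmb10 overlap.

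The activator subunits Psme1 and Psme2, which open the proteasome gate and are also induced by interferon gamma, were lower by less. Psme1 was at 86.8 FPKM in the control library and 75.4 FPKM in shGpx4, or 86.9% (81.1% to 93.2%). Psme2 was at 53.7 and 42.5 FPKM, or 79.2% (72.3% to 86.7%), and shares 59.3% of its 50-base words with the copy Psme2b. All 5 had ratios below 0, against 58.7% of all measured genes, with a median of -0.33.

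Of 16 constitutive proteasome genes, all measured, none was past 1.5-fold in either direction, with a median of -0.03. Over all measured genes 1.96% were lower by that size and 2.99% higher. Psmb5 (log2 ratio 0.09), Psmb6 (0.09) and Psmb7 (0.05) were slightly above 0 with counting intervals that hold 0, and the farthest from 0 were Psme4 (0.19), Psma7 (-0.18), Psma5 (-0.15) and Psmb1 (-0.13). Within each library, Psmb9 stood at 24.5% of Psmb6 in shNC and at 9.86% in shGpx4. Psmb8 stood at 51.5% and 31.5% of Psmb5, and Psmb10 at 19.7% and 15.0% of Psmb7.

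**Figure D3:**
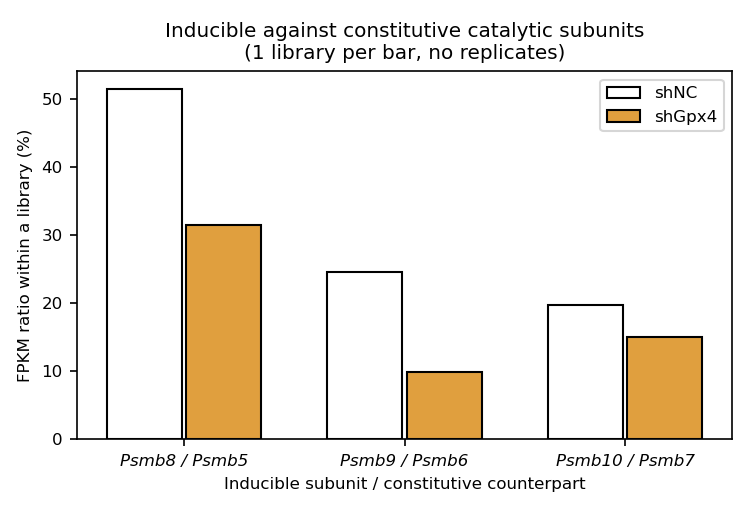
Level of each inducible catalytic subunit as a percentage of the constitutive subunit it replaces, from FPKM within 1 library, with shNC in white and shGpx4 in orange. Each bar is 1 library without replicates. All 3 percentages are lower in shGpx4, Psmb9 over Psmb6 by the largest factor (24.5% to 9.86%).

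Of the peptide transport and loading genes, Tap1, Tap2 and Tapbp were lower beyond counting error, Tapbpl was within it and Erap1 was slightly higher. None of the 5 was past 1.5-fold, against 1.96% of all measured genes lower by that size and 2.99% higher. Their median ratio was -0.13. Tap1 and Tap2 form the peptide transporter. Tap1 was at 21.0 FPKM in the control library and 17.4 FPKM in shGpx4, or 82.5% (76.0% to 89.6%), and Tap2 at 45.0 and 39.0 FPKM, or 86.7% (81.7% to 92.1%). Tapbp encodes tapasin, which bridges class I to the transporter, and was at 223 and 204 FPKM, or 91.3% (89.0% to 93.7%). Tapbpl, a tapasin relative that edits peptides, was at 9.75 and 9.70 FPKM with an interval of 63.2% to 157%. That interval rests on 40 and 43 reads, the fewest that can give its values, and is narrower if the true reads were more. Erap1, the aminopeptidase that trims peptides in the endoplasmic reticulum, was at 20.8 and 22.1 FPKM, or 107% (101% to 113%).

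Psmb9 and Tap1 differed although they share a promoter region. The pair is read in opposite directions from start sites on chromosome 17 at 34187330 for Psmb9 and 34187556 for Tap1, with 225 bases between them. The whole interval is shown along the Tap1 strand, from the Psmb9 start site to the Tap1 start site, because one stretch of DNA serves both genes.
Tap1 and Psmb9 (chr17:34187330-34187556, plus strand): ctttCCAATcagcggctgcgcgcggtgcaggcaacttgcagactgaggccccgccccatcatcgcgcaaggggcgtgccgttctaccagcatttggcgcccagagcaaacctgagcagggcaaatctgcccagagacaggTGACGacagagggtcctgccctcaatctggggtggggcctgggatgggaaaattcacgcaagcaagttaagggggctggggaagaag
The capitals mark the only motif matches in it, CCAAT beside the Psmb9 start and TGACG nearer to Tap1. Psmb9 stood at 87.9% of the Tap1 level in shNC and at 45.6% in shGpx4. The intervals of the remaining level, 35.7% to 51.2% for Psmb9 and 76.0% to 89.6% for Tap1, do not overlap. Psmb8 and Tap2 follow Tap1 on the chromosome, so that along this stretch a proteasome gene with a lower ratio alternates with a transporter gene nearer to 0.

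Class II genes were at 0 or under 1 FPKM, with the exception of a beta chain and a peptide-exchange chain. Of 11 class II members 2 were measured. H2-Ab1, the beta chain of the I-A molecule, was at 11.1 FPKM in the control library and 5.35 FPKM in shGpx4, from at least 261 and 136 reads, a remaining level of 48.2% (38.9% to 59.6%). H2-Aa, the alpha chain it pairs with, was listed at 0 in the control library (3 reads would have read as 0.142 FPKM) and reached 0.0439 FPKM in shGpx4 from at least 1 read. H2-Ab1 was thus present without a matching level of its partner in both libraries. Cd74, the invariant chain that guides class II to endosomes, was at 0.394 and 0.464 FPKM, from at least 11 and 14 reads. H2-Eb1, the beta chain of I-E, was at 0.121 and 0.197 FPKM, and H2-Eb2 and the pseudogene row H2-Ea-ps were listed at 0. C57BL/6 mice carry a defective alpha chain gene for I-E and make no I-E molecule.

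The peptide-exchange genes were also uneven in FPKM. H2-DMb1 was at 11.1 and 10.9 FPKM, or 98.1% (83.1% to 116%), and its partner H2-DMa at 0.768 and 0.773 FPKM. The smallest reads that give these values were 282 and 299 for H2-DMb1, over a length of 1284 bases. For H2-DMa they were 103 and 112, over 6798 bases. True reads and lengths may be larger multiples, separately for each gene, so the reads of the pair cannot be compared. H2-DMb2 had at least 1 read in each library, H2-Oa at least 1 read in shGpx4 and none in shNC, and H2-Ob was listed at 0 in both. The median over both measured class II genes was -0.48 and rests on H2-Ab1 alone: with no filter on low values it was 0.03.

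Cells that normally carry class II were scarce by their markers. Of 25 leukocyte markers 13 were listed at 0 in both libraries, among them the pan-leukocyte gene Ptprc and Itgax, Flt3, Cd79a, Ms4a1 and Cd3e, which mark dendritic, B and T cells. Their summed level came to 28.02 FPKM in the control library and 33.6 FPKM in shGpx4, and 4 were measured. Lyz2, lysozyme of macrophages and other myeloid cells, was at 7.67 and 1.86 FPKM, and Cd14, a co-receptor for lipopolysaccharide, was at 9.19 and 17.1 FPKM. Cd80, a co-stimulatory ligand, was at 5.86 and 10.1 FPKM. The lysosomal gene Cd68 was at 3.90 and 3.80 FPKM. Csf1r was at 0.517 and 0.370 FPKM, and the macrophage gene Adgre1 at 0.171 and 0.0132 FPKM from at least 12 and 1 reads. Lyz2 and Adgre1 were lower in shGpx4, as H2-Ab1 was, while Cd14 and Cd80 were higher. Their part in the H2-Ab1 difference was not tested. In the control library H2-D1 was at 1436 FPKM and Ptprc at 0, and which cells carried the class I message was not tested.

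Of the transactivators only Nlrc5 could be compared, and it was within counting error of equal levels. Nlrc5 was at 1.98 FPKM in the control library and 1.94 FPKM in shGpx4, or 97.7% (83.3% to 114%), from at least 309 and 326 reads. Ciita, the master regulator of class II, was listed at 0 in both libraries. The RFX and NF-Y factors, which with CREB and ATF1 form the complex that NLRC5 and CIITA join, were all 8 measured. None was past 1.5-fold, against 1.96% of all measured genes lower by that size and 2.99% higher. Their median was -0.12, with Rfx5 (-0.20), Rfxank (-0.20), Nfya (-0.17) and Nfyc (0.19) farthest from 0. The counting intervals of the first 3 lay below equal levels and that of Nfyc above, against 27.3% and 18.1% of all measured genes.

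Among interferon signalling genes none was at least 1.5-fold lower. Ifng and Ifnb1 were listed at 0 in both libraries. Of 17 signalling genes 14 were measured, with a median of -0.05. Of the 14 counting intervals 2 lay below equal levels and 3 above, against 27.3% and 18.1% of all measured genes. The receptor gene Ifngr1 was at 44.0 FPKM in the control library and 36.0 FPKM in shGpx4 (-0.28, interval -0.39 to -0.19). Irf1, which binds class I promoters, was at 15.8 and 14.3 FPKM (-0.14, interval -0.33 to 0.03). Jak1 (0.34) and Ifnar1 (0.38) were higher, and the feedback inhibitor Socs3, at 12.6 and 33.2 FPKM (1.33), was the only one past 1.5-fold. Other interferon-stimulated genes had a median of -0.11 over 27 measured of 30. Of these, 1 was at least 1.5-fold lower, the GTPase gene Ifi47 at 9.77 and 5.97 FPKM (-0.63), and none was at least 1.5-fold higher. The shares over all measured genes were 1.96% and 2.99%. Isg15 (-0.56) and Ifit3 (-0.51) were also lower, while Gbp2 (0.40), another GTPase gene induced by interferon gamma, was higher. Counting intervals lay below equal levels for 11 of the 27 and above for 3, against 27.3% and 18.1% of all measured genes.

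The chaperones of the class I loading complex were slightly higher rather than lower. Calr, calreticulin, was at 715 FPKM in the control library and 777 FPKM in shGpx4, or 109% (107% to 110.4%). Pdia3, the disulphide isomerase ERp57, was at 447 and 464 FPKM, or 104% (102% to 106%). Both also fold many other glycoproteins. Other genes of antigen processing outside the membership had a median of 0.10 over 15 measured of 16. None was past 1.5-fold, against 1.96% of all measured genes lower by that size and 2.99% higher. Lgmn (0.39), an endosomal protease, Npepps (0.30) and Tpp2 (0.29), cytosolic peptidases, were higher, as was the chaperone Canx (111 and 123 FPKM). Ifi30, an interferon-gamma-inducible thiol reductase of the endosome, was at 34.3 and 26.4 FPKM (-0.37).

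Genes for class I-like molecules encoded outside the MHC, several of which pair with B2m, were also within 1.5-fold. Past that size were 1.96% of all measured genes downwards and 2.99% upwards. Over 7 measured of 8 the median was -0.17. The neonatal Fc receptor gene Fcgrt was at 200.2 FPKM in the control library and 178 FPKM in shGpx4 (-0.17), and Hfe, the regulator of iron uptake, at 28.04 and 24.7 FPKM (-0.18). Cd1d1, which presents lipids, was at 7.27 and 5.91 FPKM (-0.26), and Ulbp1, a ligand of the receptor NKG2D, at 2.05 and 1.52 FPKM (-0.28, counting interval -1.15 to 0.27).

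The other genes of the MHC region were not lower as a group. Between Tapbp and H2-M2, from 33919478 to 37483554 on chromosome 17, 17 measured members had a median of -0.45 and 6 were at least 1.5-fold lower. The 75 measured genes of the same stretch that are not members had a median of -0.01, of which 1, the complement gene C4b (-0.66), was at least 1.5-fold lower and 1, D17H6S56E-5 (1.63), higher. A written list of 50 neighbours was not confined to this stretch, and some of it, Phf1 included, is not among those 75 genes. In the list 46 were measured and none was past 1.5-fold, against 1.96% of all measured genes lower by that size and 2.99% higher. The list had a median of -0.02. Rps18 (-0.51), Ager (-0.48), Phf1 (-0.46) and Ring1 (-0.41) were farthest from 0. Both of these medians stood close to the -0.04 of all measured genes. H2-Ke6 carries an H2 symbol but encodes a steroid dehydrogenase and no MHC chain. It was at 24.6 and 17.7 FPKM, or 72.0% (62.6% to 82.7%), a value near those of H2-K1 and B2m.

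**Figure D4:**
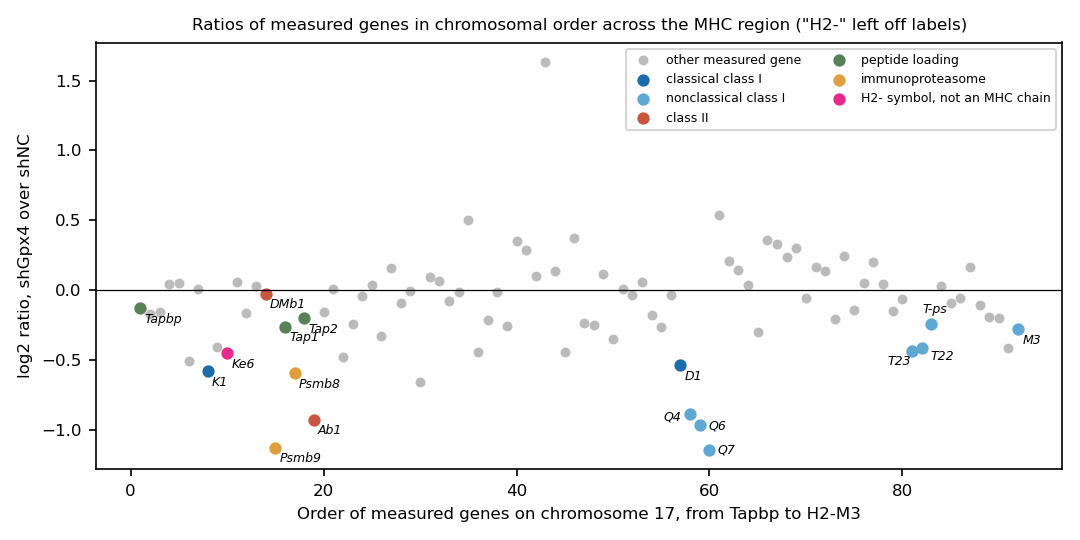
Log2 ratio of the 92 measured genes between Tapbp and H2-M3 in chromosomal order, with members coloured by class and other genes in grey. Members lie below 0 (H2-DMb1 only as long as ratios are not rescaled), with Psmb9, H2-Ab1 and the Q genes lowest, while the 75 other genes scatter around a median of -0.01.

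**Figure D5:**
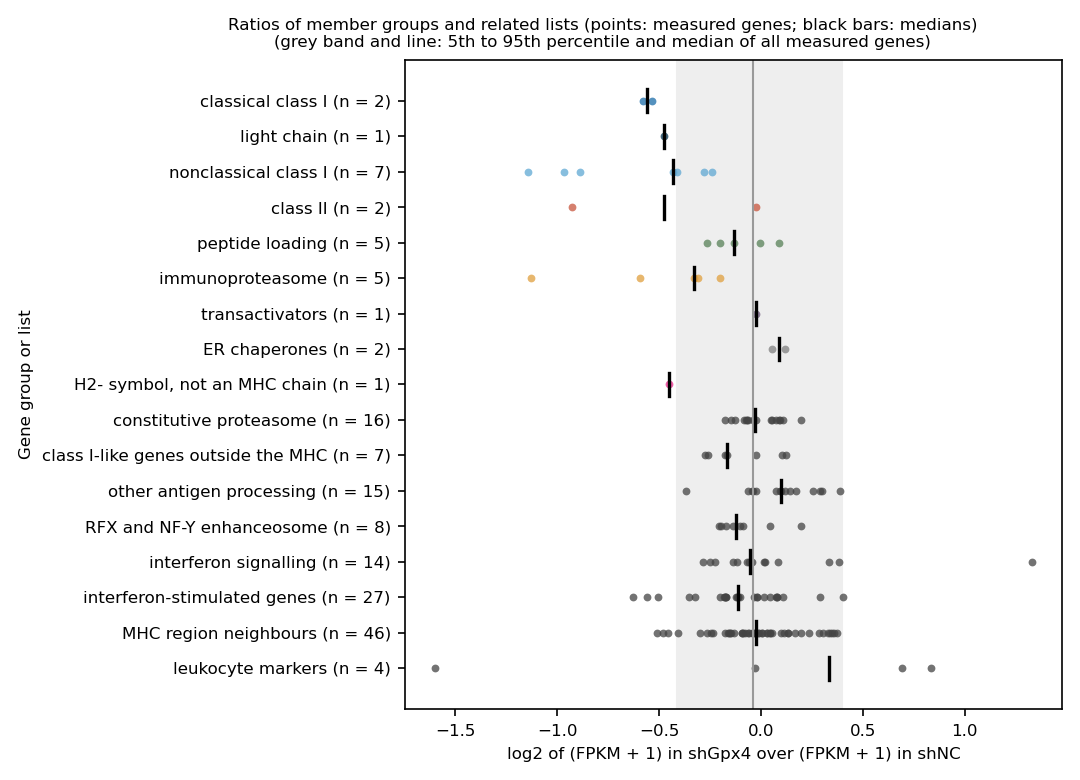
Log2 ratio of (FPKM + 1), shGpx4 over shNC, for the measured genes of each member group and related list (points), with group medians as black bars. The grey band spans the 5th to 95th percentile of all measured genes (-0.41 to 0.40) and the grey line is their median of -0.04. Class I and the light chain lie at or beyond the lower edge of the band, apart from H2-M3 and H2-T-ps, while most points of the constitutive proteasome and interferon signalling lie inside it.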

How the data were processed

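Total RNA of 2 samples was made into libraries with a stranded mRNA kit, per the labels' protocols. The authors deposited 1 table of FPKM per library. Trimmomatic, HISAT2 and Cufflinks with GRCm38 are named in the submitters' processing notes, without versions. The unit was read from the values and from Cufflinks. The sources used here do not give the strand setting or filters, so overlapping genes (B2m with Patl2, Erap1 with Cast, H2-T23 with A930015D03Rik) and near-identical copies may share reads.

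Library totals were worked out from the most frequent ratio of the libraries' values, shared by 388 genes, and the values of all 15153 genes above 0 could then be written as reads per length in whole numbers (relative error at most 1.5e-13). These are the smallest reads that give both values. The lengths found with them lay within 10% of a GENCODE transcript for 52.3% of 9932 genes compared. PCR copies are not separate molecules, so intervals cover counting error only. For members at 0 in 1 library, the FPKM that 3 reads would give is the floor. Ratios used a pseudocount of 1, no rescaling and a minimum mean of 1 FPKM.

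Members and the 11 related lists (202 entries, 198 matched) were chosen with earlier results of these data known. Named genes were all measured members, members under the filter with the highest means or an interval that excludes equal levels, up to 4 measured genes of each list with the largest absolute ratio, Psmb5 to Psmb7 and Irf1, and every measured leukocyte marker. H2-Aa, H2-M5, H2-M10.2, H2-Q2, H2-DMb2, H2-Oa, C4b, D17H6S56E-5, Canx, Comp, Csf1r, Adgre1 and the markers at 0 were named after their values were seen. So were Col11a1, Col1a2 and Vim. Some genes that the rule or the lists take in are not reported here. Chondrocyte markers were used to check the label; their median was 0.15 over 7 measured, that of fibroblast markers 0.23 over 8, and of 7 endothelial markers 1, Eng, was measured. Positions and promoters are RefSeq's for GRCm38.p6. The computation was tested on simulated data. Tables were handled with pandas 2.3.3 and numpy 2.4.6 in Python 3.11.15, intervals computed with scipy 1.17.1 and plots drawn with matplotlib 3.10.9.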

Additional observations from a re-analysis of the deposited data

How the results depend on the processing

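With 1 library per group no result was tested, and depth limits only the weakly expressed members. No paired analysis was possible because each group has 1 library. Of 207 alternative values of the 26 members' ratios, 204 did not cross 1.5-fold. The exception was Psmb8, just past it, which came to -0.55 when ratios were centred on their median, scaled to the 75th percentile, or scaled with a trimmed mean of ratios. The count of members at least 1.5-fold lower was 5 under these scalings and 6 under the others, and that of members higher was 0 throughout. H2-DMb1, Nlrc5 and Tapbpl, all within counting error of 0, took the other sign under these same scalings, which left 20 of the 26 below 0. Of 146 alternative counts and medians, 133 moved by less than the counting error or 1.5 times. Centring, the 75th percentile and the trimmed mean, in that order, put the classical class I median at -0.52, -0.51 and -0.51, that of the ER chaperones at 0.13, 0.14 and 0.13 and that of fibroblast markers at 0.26, 0.27 and 0.27. With no filter on low values, medians were 0.0330 for class II, -0.0497 for leukocyte markers and -0.00475 for chondrocyte markers; with a minimum mean of 5, that of leukocyte markers was 0.76. The medians of the constitutive proteasome and of the MHC neighbours, close to 0, also took the other sign under those 3 scalings. In alternatives chosen after seeing the data, the median of nonclassical class I without H2-Q6 and H2-Q7 was -0.41, and that of all 75 other measured genes of the region -0.01.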
